A study of Junonia coenia with 38 samples.

Results

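Wing transcripts of the buckeye butterfly Junonia coenia, taken from the whole organ, were compared between pupae at 72 h after pupation and prepupae, the larvae about to pupate. The comparison was made separately for each pair of wings, and the results were then set side by side to find what both share. It rests on 12 of the 38 libraries of the series: 3 forewing libraries at 72 h, 3 prepupal forewing libraries, 3 hindwing libraries at 72 h and 3 prepupal hindwing libraries, chosen by the stage and wing in their labels. The 12 wing libraries of the 5th larval instar and the late pupa are used where they show what the same transcripts did before and after. All animals were reared at about 27 C, and the labels give no strain, genotype, treatment or sex. The labels number the libraries of a group 1 to 3 without saying whether each is one animal or a pool, so that p-values measure the spread between libraries, which may be technical. That spread was estimated in 1 fit over all 24 wing libraries, so it also draws on the other wing and the other stages.

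Butterfly wings grow as folded discs inside the caterpillar. In the prepupa the discs turn outward and their epithelium secretes the cuticle of the pupa. After pupation the epithelium parts from that cuticle, and rows of its cells become scale cells, which later lay down the cuticular scales and the pigments of the wing pattern. Moults and metamorphosis are driven by pulses of the steroid hormone ecdysone, whose receptor EcR is named in the title of the series together with the transcription factor spineless. In insects, genes for cuticle proteins are known to lie side by side in clusters of related copies.

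The deposited table counts reads over 19234 gene models on 811 contigs, and the sources used here pair no model with a gene name. Each model is therefore called by its contig with its first and last position, counted from 1. Roles, cell type markers and the hindwing selector Ubx, which would test the wing labels, could not be looked up. Total counts lay between 10247975 and 13355152 in the 72 h forewings, between 9282023 and 15256236 in the prepupal forewings, between 5795618 and 11089240 in the 72 h hindwings, and between 9465875 and 13515079 in the prepupal hindwings. A model was tested when it passed a filter on low counts, which left 13282. It was called when the adjusted p of edgeR's quasi-likelihood test (Benjamini-Hochberg) was below 0.05. Levels are CPM, the count of a model relative to the library total, scaled with TMM factors, which averaged 0.953 in 72 h forewings and 0.590 in prepupal forewings, and 0.844 in 72 h hindwings and 0.870 in prepupal hindwings. In both wings replicate 3 at 72 h stood apart from its group: the chi-square per degree of freedom between its counts and those of replicates 1 and 2 was 204 to 359, against 65.4 and 70.7 between replicates 1 and 2.

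In the forewing 6363 models were called, 47.9% of those tested, with 3191 higher at 72 h (24%) and 3172 lower (23.9%). In the hindwing 6444 models were called (48.5%), with 3102 higher (23.4%) and 3342 lower (25.2%). Among the called models, 2399 were higher at 72 h in both wings (18.1% of those tested) and are called shared risers. Another 2421 were lower in both wings (18.2%) and are called shared fallers. The risers made up 75.2% of the forewing rises and 77.3% of the hindwing rises, and the fallers 76.3% of the forewing falls and 72.4% of the hindwing falls. The scaling centres the changes on the bulk of the models, so the split between rises and falls is relative to it. With DESeq2 size factors in the same fit, the forewing gave 2978 higher and 3370 lower and the hindwing 3178 higher and 3270 lower. Opposite calls were given to 47 models, 26 of them higher at 72 h in the hindwing and lower in the forewing, and 5342 models were called in neither wing. In bulk wings a smaller share of a cell type and less RNA per cell of that type cannot be told apart.

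The median log2 fold change of the risers was 1.98 in each wing, and that of the fallers was -2.14 for the forewing step and -2.34 for the hindwing step, compared with 0.07 and 0.00 over all tested models. A change of at least 1 on the log2 scale in both wings was reached by 1751 risers and 1835 fallers, one of at least 3 by 663 and 803, and one of at least 5 by 310 and 376. With the 49 risers and 94 fallers that had no count in the lower stage of a wing set to the bound that a floor of 3 counts over the group allows, the medians were 1.97 and 1.98 for the risers and -2.14 and -2.29 for the fallers. A change of at least 5 was then reached by 300 risers and 339 fallers. Across the 13282 models the log2 fold changes of the wings had a Pearson correlation of 0.899, and 82.3% had the same sign. This is a description across models that are not independent, in wings that may come from the same animals. No overlap between the 72 h and prepupal libraries in either wing was found for 2087 risers and 2282 fallers, beside 18.4% of all tested models that lay wholly higher and 19.7% that lay wholly lower. Without both 72 h replicates 3, the counts were 2373 risers and 2366 fallers, of which 2096 and 2134 were the models counted above.

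**Figure D1:**
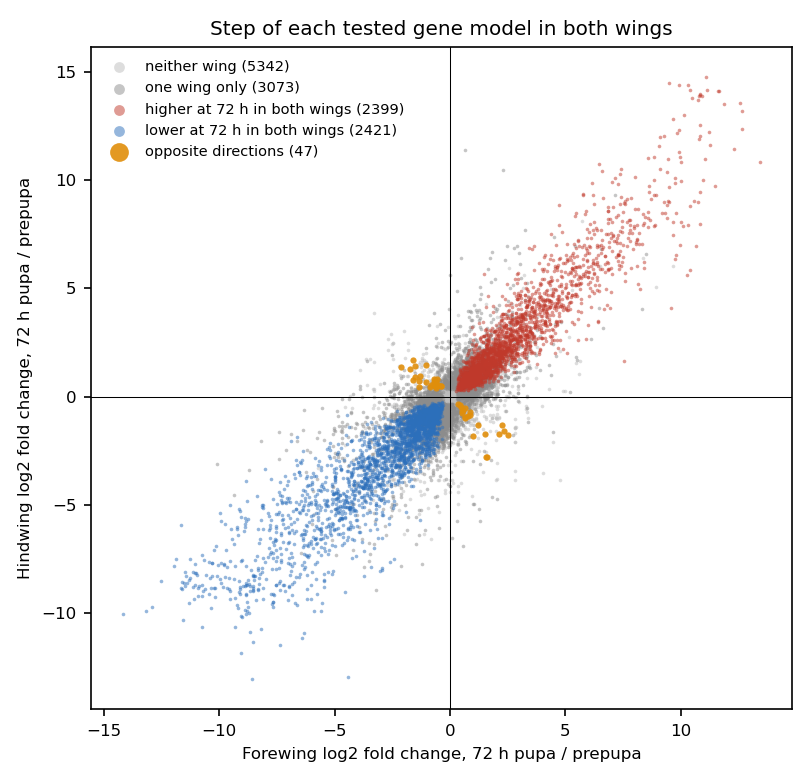
Log2 fold change of the 72 h pupa over the prepupa in the forewing (x axis) and the hindwing (y axis), 1 point per tested gene model, coloured by the call in each wing. The 2399 shared risers and 2421 shared fallers run along the diagonal, and the 47 models called in opposite directions lie in the other quadrants.

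By share of counts, most reads at 72 h came from shared risers and most prepupal reads from shared fallers. The shared risers held 58.7%, 59.0% and 55.1% of all counts in the 3 forewings at 72 h, against 3.27%, 3.64% and 3.67% in the 3 prepupal forewings. In the hindwing they held 62.2%, 62.8% and 58.6% at 72 h, against 4.25%, 4.86% and 5.37% in the prepupa. The 72 h and prepupal libraries thus lay far apart in both wings. The fallers did the reverse, with 12.8% ± 0.979 (SD, n = 3) of the counts in 72 h forewings and 71.1% ± 0.982 in prepupal forewings, and with 11.2% ± 1.14 in 72 h hindwings and 65.9% ± 2.88 in prepupal hindwings. These lists were chosen for their change, so the direction of their shares follows from the choice, and the size is a description.

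The flanking stages are not in the compared step, but their libraries entered the filter, the scaling and the spread estimate of the fit. Their shares lay between these extremes. In each wing the late pupal libraries lay below the larval ones for both lists. The fallers held 30.0% to 34.0% of late pupal forewing counts, against 38.1% to 38.9% of larval ones. In the order 5th instar, prepupa, 72 h pupa and late pupa, the risers averaged 12.3%, 3.52%, 57.6% and 11.0% of the forewing counts, and the fallers 38.5%, 71.1%, 12.8% and 31.4%. The hindwing ran alike, with 13.5%, 4.82%, 61.2% and 12.5% for the risers and 36.6%, 65.9%, 11.2% and 30.8% for the fallers. By mean level over both wings, 1730 of the 2399 risers (72.1%) had their highest level of the 4 stages at 72 h, 332 in the 5th instar and 337 in the late pupa. Of the 2421 fallers, 1408 (58.2%) were highest in the prepupa, 530 in the 5th instar and 483 in the late pupa. No riser was highest in the prepupa and no faller at 72 h, which follows from how the lists were chosen. They were chosen for the difference between these stages, so the other peak shares also follow in part from the choice. The same shares over all tested models were not computed.

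**Figure D2:**
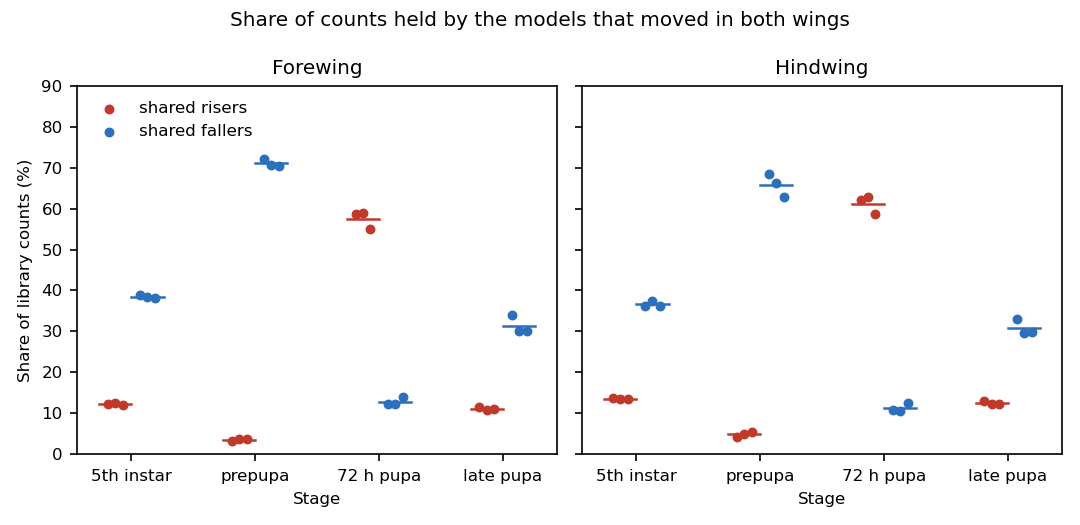
Share of all counts of a library (%) held by the shared risers (red) and the shared fallers (blue) at 4 stages, in the forewing (left) and the hindwing (right); points are libraries and bars the means of 3. Risers exceed 55% at 72 h only and stay below 14% in the other stages, while fallers exceed 62% in the prepupa only.

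The late pupa was also tested against the 5th instar, in libraries outside the compared step that share its fit. Over all tested models 27.9% were higher in the late pupa in both wings and 29.1% were lower in both. Among the risers 749 (31.2%) were higher in the late pupa and 565 (23.6%) were lower. Among the fallers 859 (35.5%) were higher and 730 (30.2%) lower, and among the models called in neither wing the shares were 23.8% and 26.6%.

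The 6 named rises were those with the largest mean fold change over both wings among 1225 shared risers with a mean log2 CPM of at least 3 and no overlap in either wing. Of these, 5 lie on contig 000238F, between positions 282087 and 582415, and the other on contig 000001F. Model 000238F:382989-387955 had 79236, 79566 and 68160 CPM in 72 h forewings, against 13.3, 6.96 and 79.8 CPM in prepupal forewings. In the hindwing it had 118841, 99291 and 91418 CPM at 72 h, against 2.40, 10.04 and 4.01 CPM in the prepupa. Its log2 fold change was 11.15 ± 1.39 (SE) in the forewing (adjusted p = 2.41e-06) and 14.19 ± 1.54 in the hindwing (adjusted p = 4.13e-07). This single model took 6.86%, 7.32% and 7.32% of all counts of the 72 h forewings, and 8.52%, 8.23% and 9.01% of those of the 72 h hindwings.

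Model 000238F:575512-582415 came next in abundance. It had 74654, 59673 and 35759 CPM in 72 h forewings, against 13.3, 6.86 and 34.2 CPM in prepupal forewings. Hindwing libraries had 89746, 74176 and 61265 CPM at 72 h, against 0.667, 8.63 and 2.98 CPM in the prepupa. The log2 fold changes were 11.61 ± 1.37 and 14.14 ± 1.49 (adjusted p = 1.15e-06 and 2.74e-07). No library of one stage came near the other stage. Model 000238F:544850-569279 had log2 fold changes of 10.81 ± 1.16 and 13.88 ± 1.30 in forewing and hindwing (adjusted p = 3.76e-07 and 6.34e-08). In the forewing its libraries held 10085, 8619 and 14824 CPM at 72 h, against 2.51, 1.71 and 14.4 CPM in the prepupa.

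The other 3 differed between libraries at 72 h. Model 000238F:282087-290733 had 20187, 19100 and 701 CPM in 72 h forewings, against 2.51, 1.07 and 3.08 CPM in prepupal forewings. Replicate 3 was far below the others. The hindwing had 12954, 17465 and 7800 CPM at 72 h, against 0.801, 1.59 and 0.653 CPM in the prepupa. The log2 fold changes of this model were 12.57 ± 1.40 and 13.59 ± 1.45 (adjusted p = 5.82e-07 and 3.39e-07). Model 000001F:4814900-4819909 had the same low replicate, with 15782, 14422 and 1760 CPM in 72 h forewings, against 1.74, 1.49996 and 1.76 CPM in prepupal forewings. Its log2 fold changes of 12.64 ± 1.07 and 13.19 ± 1.08 (adjusted p = 1.75e-08 and 1.22e-08) were the most precise of the 6. Model 000238F:479617-483917 was low in another library, with 2328 CPM in hindwing replicate 1 at 72 h beside 8429 and 10627 CPM in replicates 2 and 3, against 1.73, 1.67 and 1.03 CPM in prepupal hindwings. The changes were 11.22 ± 1.12 and 12.23 ± 1.17 on the log2 scale in forewing and hindwing (adjusted p = 1.54e-07 and 8.52e-08).

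The low end of these folds rests on a few prepupal libraries. Of the 8 models named for their rise or their share of counts at 72 h, 7 had in prepupal forewing replicate 3 between 0.0949% and 0.117% of their level in 72 h forewing replicate 3, The exception was 000238F:282087-290733, at 0.440%. In replicates 1 the same ratio ran from 0.0110% to 0.0606% over the 8 models, and in replicates 2 from 0.00561% to 0.0734%. Whether reads of one library were counted in another was not tested. Without prepupal forewing replicate 3 the forewing log2 fold change was 12.87 for 000238F:382989-387955, 12.46 for 000238F:575512-582415, 12.38 for 000238F:544850-569279 and 12.79 for 000238F:479617-483917. Without prepupal hindwing replicate 2 the hindwing value was 14.96, 15.28 and 14.63 for the first 3 of these, and 13.86 for 000001F:4814900-4819909. The direction and the call held without each library in turn for all 6 models in both wings.

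**Figure D3:**
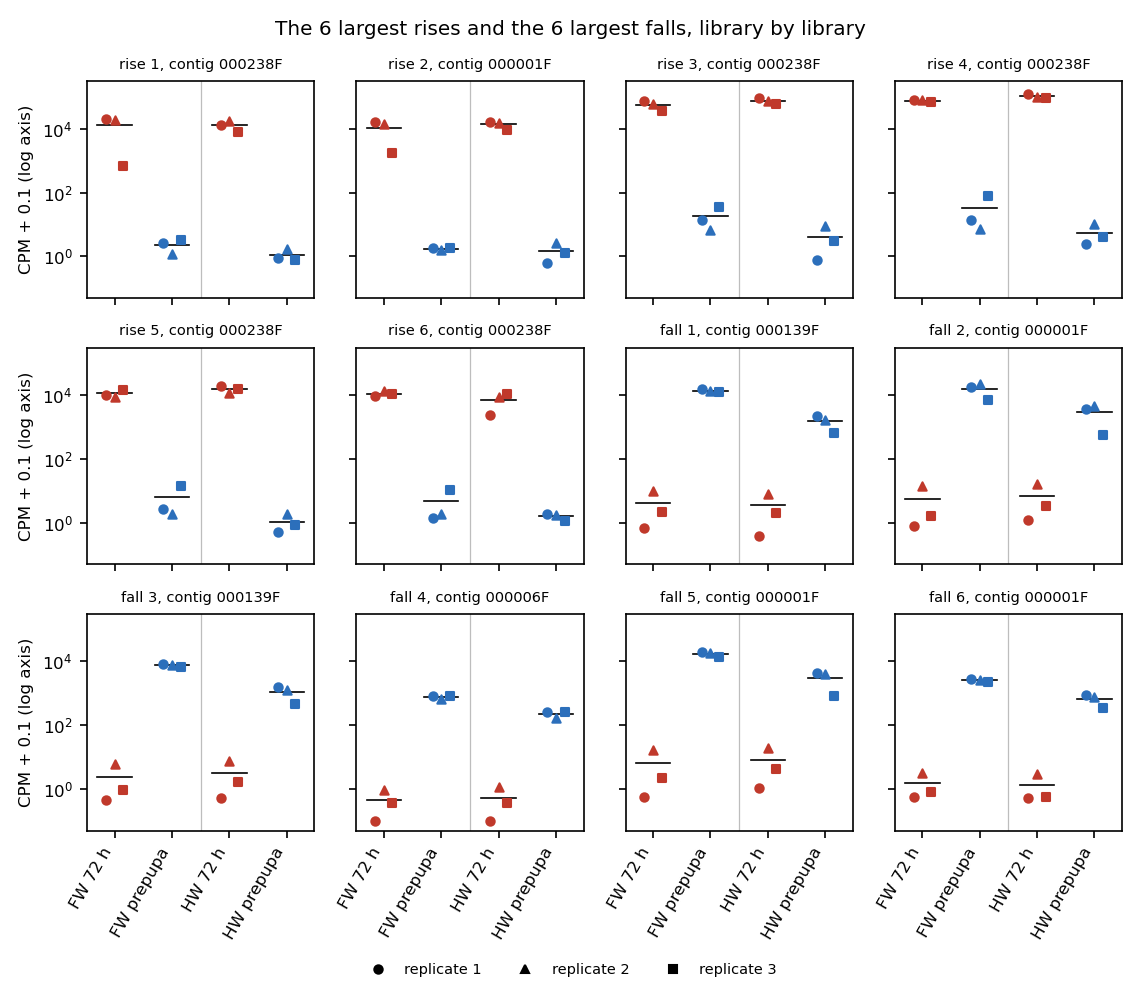
CPM + 0.1 (log axis) of the 6 largest shared rises and the 6 largest shared falls in each library of the forewing (FW) and hindwing (HW), with 72 h in red, prepupa in blue, marker shape for the replicate number and a bar for the mean of 3. The models were chosen so that no library of one stage reaches the level of the other stage. Among the falls, replicate 2 is the highest at 72 h in both wings.

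Besides these, 2 models stood among the 4 with the largest share of counts at 72 h. Model 000238F:397096-402452 had 1.30%, 2.08% and 2.55% of the counts of 72 h forewings and 0.274%, 1.11% and 2.39% of those of 72 h hindwings. Its log2 fold changes were 10.83 ± 1.18 in the forewing (adjusted p = 4.23e-07, and 12.64 without prepupal forewing replicate 3) and 12.03 ± 1.23 in the hindwing (adjusted p = 1.98e-07, 11.34 without 72 h hindwing replicate 3 and 12.78 without prepupal hindwing replicate 2). Model 000103F:1066390-1070033 was carried by replicate 3, with 0.442%, 0.457% and 3.62% of the counts of 72 h forewings, against 0.000172%, 0.000223% and 0.00193% in prepupal forewings. In 72 h hindwings it had 1.64%, 0.631% and 2.51%, against 0.000137%, 0.000244% and 0.000192% in prepupal hindwings. Its forewing log2 fold change of 10.14 ± 1.19 (adjusted p = 1.12e-06) became 8.61 without 72 h forewing replicate 3 and 12.08 without prepupal forewing replicate 3. The hindwing value was 13.03 ± 1.32 (adjusted p = 1.79e-07).

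Models that moved together also lay together. Among the 10677 tested models that overlap no other model, a shared riser had 3744 neighbouring places on its contig, and 35.6% of them were held by another riser, while 18.7% of all these models are risers and 13.1% of the places held a faller. For the fallers, 35.9% of 3761 places held another faller, while 18.6% of the models are fallers and 13.1% of the places held a riser. The median gap between neighbours that moved the same way was 10637 bases for risers and 9050 bases for fallers, against 10047 bases for all neighbours. Without both 72 h replicates 3 the shares were 34.7% and 33.1%. Runs of at least 5 consecutive models numbered 19 for the risers and 27 for the fallers, and the longest held 17 and 16 models.

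The 17 risers in a row lie on contig 000238F, from position 195029 to 671955, which is 477 kb. They are 17 of the 19 tested models of that contig. Together they held 19.1% ± 0.998 (SD, n = 3) of all counts in 72 h forewings and 0.00550% ± 0.00545 in prepupal forewings. In hindwings they held 21.4% ± 0.668 at 72 h and 0.00202% ± 0.00120 in the prepupa. The run was as low in the flanking stages, at 0.00300% and 0.00319% in larval forewings and hindwings and 0.00746% and 0.00561% in late pupal ones. As a sum, the run was thus high at 72 h alone of the 4 stages. By mean log2 CPM, 1 of its 17 members was highest in a larval group.

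Inside the run, levels were far from even. The forewing mean at 72 h ranged from 7.71 CPM for 000238F:433985-439174 to 75654 CPM for 000238F:382989-387955, although both passed the test in both wings. Model 000238F:333724-339107 had no count in the prepupal hindwings and was at least 2048-fold higher at 72 h, by a floor of 3 counts over the group. This bound was 982 without 72 h hindwing replicate 1, 3103 without 72 h hindwing replicate 3, 1262 without prepupal hindwing replicate 2 and 1305 without prepupal hindwing replicate 3. The forewing ratio of that model was 1026 with an exact 95% counting interval of 351 to 4978, and 2094 without prepupal forewing replicate 3. Model 000238F:449359-450789, also without a count in prepupal hindwings, was at least 2713-fold higher there. Most of its counts came from 72 h hindwing replicate 3, without which the bound was 587, and it was 1671 and 1729 without prepupal hindwing replicates 2 and 3. The last member, 000238F:665422-671955, rested on replicates 3: its log2 fold change was 4.07 in the forewing (adjusted p = 0.0289) and 5.46 in the hindwing (adjusted p = 0.00741), and without both 72 h replicates 3 it was 0.26 and 0.77 (adjusted p = 0.739 and 0.355). The other 16 members kept their calls in both wings without each library in turn.

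The next longest runs of risers were small in counts. On contig 000208F, 8 models from position 311124 to 515344 summed to 796, 488 and 161 CPM in 72 h forewings, against 62.1, 44.8 and 45.2 CPM in prepupal forewings. In hindwings they summed to 1465, 1070 and 182 CPM at 72 h, against 65.7, 45.6 and 44.2 CPM in the prepupa. Replicate 3 was the lowest at 72 h in both wings, and still above all prepupal libraries. The sum was led by 000208F:377536-380543, with a mean of 246 CPM in 72 h forewings and 0.318 CPM in prepupal forewings. Model 000208F:397561-398493 lost its hindwing call (log2 fold change 1.12, adjusted p = 0.0302) without 72 h hindwing replicate 1 (0.80, adjusted p = 0.159), without prepupal hindwing replicate 1 (0.99, adjusted p = 0.0990) and without prepupal hindwing replicate 2 (1.08, adjusted p = 0.0820).

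On contig 000023F, 7 models from position 803676 to 1041564 rose in both wings. Their log2 fold changes lay between 2.89 and 3.99 in the forewing and between 3.396 and 3.82 in the hindwing. Their sum was 661, 805 and 570 CPM in 72 h forewings, against 64.4, 91.2 and 79.5 CPM in prepupal forewings. In hindwings it was 549, 842 and 724 CPM at 72 h, against 43.5, 69.6 and 59.1 CPM in the prepupa. The most abundant, 000023F:1006034-1030850, spans 24817 bases and had a mean of 318 CPM in 72 h forewings and 35.7 CPM in prepupal forewings. The weakest, 000023F:803676-804383, with means of 3.17 CPM in 72 h forewings and 0.200 CPM in prepupal forewings (adjusted p = 0.0472), lost its call in at least one wing without any 1 of 10 of the 12 libraries, the exceptions being the 72 h replicates 3. Between those 10, its log2 fold change ran from 3.43 to 4.61 in the forewing.

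**Figure D4:**
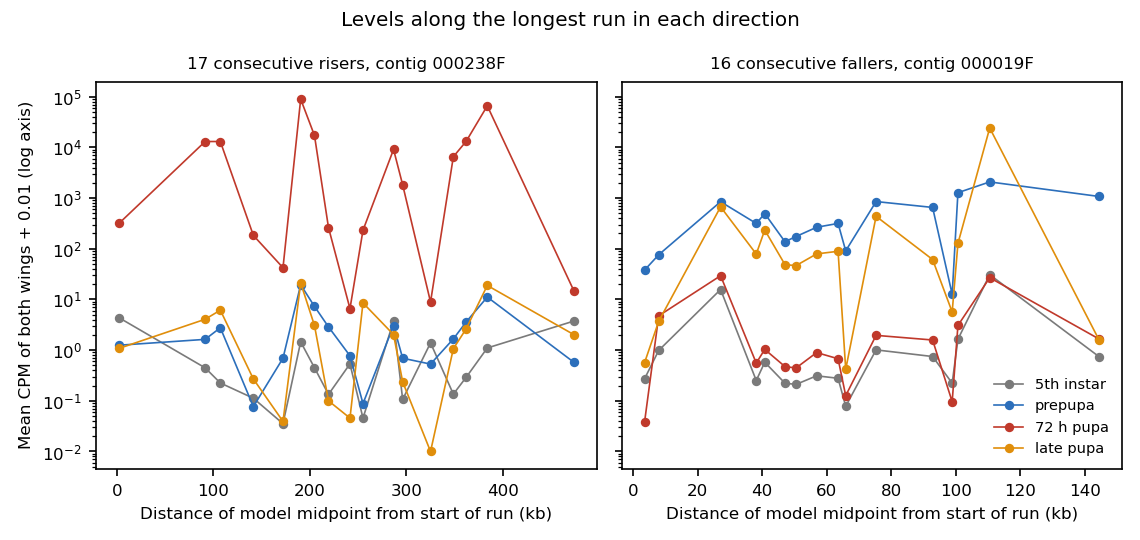
Mean CPM of both wings + 0.01 (log axis) of each model along the longest run of shared risers (left, contig 000238F) and of shared fallers (right, contig 000019F), against the distance of the model's midpoint from the start of the run (kb), with 1 line per stage. As a whole the riser run is high at 72 h alone. The faller run is high in the prepupa, and 1 of its 16 members is higher still in the late pupa.

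The 6 named falls were chosen by the same rule from 1460 shared fallers, and 3 of them lie between positions 4647825 and 4673702 of contig 000001F. Model 000001F:4661880-4663136 had 0.451, 16.1 and 2.13 CPM in 72 h forewings, against 19444, 18225 and 13574 CPM in prepupal forewings. The hindwing had 0.984, 18.5 and 4.21 CPM at 72 h, against 4227, 4016 and 826 CPM in the prepupa. Its log2 fold change was -11.41 ± 1.77 in the forewing (adjusted p = 2.80e-05) and -8.61 ± 1.60 in the hindwing (adjusted p = 1.84e-04), or -13.64 and -10.15 without 72 h replicate 2 of that wing. Its neighbour 000001F:4672496-4673702 had log2 fold changes of -11.49 ± 1.82 and -8.74 ± 1.65 (adjusted p = 3.61e-05 and 2.18e-04), or -13.76 and -10.31 without that replicate. The third, 000001F:4647825-4649472, fell to 0.451, 3.17 and 0.711 CPM in 72 h forewings, against 2853, 2638 and 2309 CPM in prepupal forewings. It changed by -10.77 ± 1.32 and -9.19 ± 1.28 on the log2 scale (adjusted p = 1.94e-06 and 8.25e-06), or by -12.08 and -10.51 without replicate 2.

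On contig 000139F, 2 models that overlap each other are among the 6, so their separate values are uncertain. Model 000139F:1001198-1025653 had 0.564, 9.93 and 2.05 CPM in 72 h forewings, against 15316, 13691 and 12295 CPM in prepupal forewings. In 72 h hindwings it had 0.281, 7.91 and 1.92 CPM, against 2183, 1641 and 668 CPM in prepupal hindwings. Its log2 fold changes were -11.67 ± 1.75 and -8.86 ± 1.59 (adjusted p = 2.00e-05 and 1.36e-04), and those of 000139F:1013418-1032649 were -11.62 ± 1.56 and -8.55 ± 1.40 (adjusted p = 5.41e-06 and 5.18e-05). Without 72 h replicate 2 of the wing they were -13.32 and -10.32 for the first and -13.64 and -10.07 for the second. For all 6 named falls, replicate 2 was the highest and replicate 1 the lowest of the 72 h libraries in both wings. In the prepupa the forewing libraries lay above the hindwing libraries for all 6.

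Model 000006F:3153871-3158230 was the only one of the 6 that was high again later. It had 0, 0.814 and 0.267 CPM in 72 h forewings, against 799, 675 and 815 CPM in prepupal forewings. Hindwing libraries had 0, 1.04 and 0.274 CPM at 72 h, against 255, 163 and 253 CPM in the prepupa. Its log2 fold changes were -10.91 ± 0.99 and -9.21 ± 0.97 (adjusted p = 4.42e-08 and 2.94e-07), or -12.24 and -10.35 without 72 h replicate 2. In the late pupa it stood at 65.2, 84.2 and 81.5 CPM in forewings and 70.6, 83.4 and 81.6 CPM in hindwings, while no larval library exceeded 2.42 CPM.

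By share of counts the prepupal wing was led by 4 other models, all of which fell. Model 000032F:2595231-2602533 took 0.00472%, 0.00994% and 0.00135% of the counts of 72 h forewings, against 4.64%, 4.26% and 4.04% of those of prepupal forewings. In hindwings it took 0.00806%, 0.00923% and 0.00196% at 72 h, against 1.70%, 1.21% and 1.32% in the prepupa. Its log2 fold changes were -10.29 ± 1.37 (adjusted p = 4.83e-06, or -11.09 without 72 h forewing replicate 2) and -7.67 ± 1.23 (adjusted p = 4.14e-05). It was back at 0.662%, 0.595% and 0.356% in late pupal forewings. Model 000055F:1363121-1364800 was of the same kind, with 2.66%, 2.10% and 2.88% in prepupal forewings, 0.00120%, 0.00869% and 0.00115% in 72 h forewings and 1.02%, 0.907% and 0.669% in late pupal forewings. It changed by -10.09 ± 1.32 in the forewing and -8.26 ± 1.23 in the hindwing (adjusted p = 3.97e-06 and 1.73e-05), or by -11.78 and -9.96 without 72 h replicate 2.

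The other 2 had overlapping levels in prepupal hindwings and forewings. Model 000006F:3244980-3253099 had 2.48, 124 and 4.27 CPM in 72 h forewings, against 26454, 23306 and 23881 CPM in prepupal forewings. The hindwing had 3.52, 138 and 24.6 CPM at 72 h, against 33926, 29168 and 21942 CPM in the prepupa. The log2 fold changes of -9.14 ± 2.12 and -9.00 ± 2.11 (adjusted p = 0.00147 and 0.00157) became -12.81 and -10.97 without 72 h replicate 2. Model 000001F:4573274-4597913 was held up by another library, with 982, 192 and 4.09 CPM in 72 h forewings, against 35065, 39189 and 22243 CPM in prepupal forewings. In 72 h hindwings it had 858, 191 and 36.7 CPM, against 40704, 37821 and 20197 CPM in prepupal hindwings. Its log2 fold changes of -6.36 ± 1.87 and -6.51 ± 1.88 (adjusted p = 0.00873 and 0.00764) became -8.35 and -8.18 without 72 h replicate 1.

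The longest run of fallers, 16 models on contig 000019F from position 1811349 to 1956194, was low at 72 h between stages at which its sum was high. Its members summed to 77.1, 122 and 39.8 CPM in 72 h forewings, against 8404, 5532 and 10692 CPM in prepupal forewings. In hindwings they summed to 51.3, 121 and 28.2 CPM at 72 h, against 11662, 6435 and 9444 CPM in the prepupa. In the late pupa the sums were 34624, 30406 and 27900 CPM in forewings and 27671, 17921 and 17316 CPM in hindwings, and in the 5th instar they were 50.9, 78.9 and 63.9 CPM in forewings. Most of the late sum came from 000019F:1917711-1926121, with means of 1651 CPM in prepupal forewings, 30.0 CPM in 72 h forewings and 28757 CPM in late pupal forewings. Not all members came back: 000019F:1955556-1956194 averaged 1138 CPM in prepupal forewings, 1.81 CPM in 72 h forewings and 2.23 CPM in late pupal forewings. All 16 kept their calls in both wings without each library in turn.

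The other long falling runs differed between wings in the prepupa. On contig 000051F, 9 models from position 215186 to 296438 held 0.000749% ± 0.000921 of the counts of 72 h forewings and 0.962% ± 0.389 of those of prepupal forewings. They held 0.000882% ± 0.000910 in 72 h hindwings and 0.234% ± 0.132 in prepupal hindwings. Nearly all of it was 000051F:263085-264574, with means of 7.36 CPM in 72 h forewings, 15629 CPM in prepupal forewings, 9.64 CPM in 72 h hindwings and 2693 CPM in prepupal hindwings. For 7 of the 9 models, a group of 3 libraries held 3 counts or fewer in all. With each wing fitted alone, 5 of the 9 were called in both wings. Model 000051F:225948-227137 had no count at 72 h and was at least 1774-fold lower there in the forewing and at least 70.3-fold lower in the hindwing, by a floor of 3 counts over the group. The forewing bound was 1101 without 72 h forewing replicate 2 and 1158 without 72 h forewing replicate 3. The hindwing bound was 36.2 without prepupal hindwing replicate 1 and 36.7 without 72 h hindwing replicate 3. Model 000051F:245050-246285 rested on 3 counts in 72 h hindwings, with a ratio of 73.9 (exact 95% counting interval 25.04 to 361) of prepupal over 72 h level. That ratio was 17.6 without prepupal hindwing replicate 2, 113 without prepupal hindwing replicate 3 and 38.5 without 72 h hindwing replicate 3. Its fitted hindwing log2 fold change of -5.93 (adjusted p = 0.0103), which rests on these few counts, was -9.84 without 72 h hindwing replicate 2 (adjusted p = 0.0187). It lost its hindwing call without 72 h hindwing replicate 3 (-5.07, adjusted p = 0.0505), without prepupal hindwing replicate 2 (-4.11, adjusted p = 0.0745) and by DESeq2 (-5.47, adjusted p = 0.0518). In the forewing the fitted -11.66 was -13.70 without 72 h forewing replicate 1 and -9.57 without prepupal forewing replicate 2, with 1 count in all 72 h forewings.

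On contig 000139F, 9 models from position 982583 to 1167486 mixed very large and small changes, with log2 fold changes from -11.05 to -0.55 in the forewing and from -8.85 to -0.73 in the hindwing. They held 0.0803% ± 0.00335 of the counts of 72 h forewings and 4.45% ± 0.327 of those of prepupal forewings, and 0.0735% ± 0.00187 of those of 72 h hindwings and 2.81% ± 0.787 of those of prepupal hindwings. The prepupal share came mainly from 000139F:996643-998111, 000139F:1034736-1036930 and 000139F:1050299-1051800, with forewing means of 15.4, 33.5 and 9.01 CPM at 72 h and 26804, 27398 and 19272 CPM in the prepupa. Without 72 h replicate 2 of the wing, their log2 fold changes moved to -13.06, -14.16 and -12.85 in the forewing, against -10.76, -9.67 and -11.05 with it, and to -10.49, -10.79 and -10.40 in the hindwing, against -8.71, -8.85 and -8.68 with it. The smallest change in the run, that of 000139F:1122762-1132541 (-0.55 in the forewing, adjusted p = 0.00945), lost its call without 72 h forewing replicate 2 (-0.43, adjusted p = 0.0592).

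A stretch of contig 000001F, chosen after its values were seen, showed neighbours that were high at different stages. It holds 33 tested models in 376 kb from position 4496359 to 4871907. Of these, 18 are shared fallers, 2 are shared risers, 6 were called in one wing only and 7 in neither. These counts include 7 models that overlap another and may share reads. By mean level 23 were highest in the prepupa, 9 in the late pupa and 1 at 72 h. The rise of 000001F:4814900-4819909 thus sits beside 000001F:4800240-4804348, which ran at 172, 357 and 25.2 CPM in prepupal hindwings, 238, 102 and 1.28 CPM in 72 h hindwings and 78708, 79637 and 73112 CPM in late pupal hindwings. That neighbour did not pass the test in the hindwing (log2 fold change -0.70 ± 1.35, adjusted p = 0.703) and fell in the forewing (-4.28 ± 1.54, adjusted p = 0.0280). Of 383 contigs with at least 8 tested models, at least 50% of the models were shared risers on 7 and shared fallers on 5, with the highest shares on 000238F (89.5% risers) and 000206F (88.9% fallers).

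A stricter view counts models that were silent at one stage in every library. At most 1 CPM in all 6 prepupal libraries and at least 10 CPM in all 6 libraries at 72 h was found for 38 models on 34 contigs, beside 18.4% of all models that did not overlap in that direction. The reverse was found for 50 models on 41 contigs, beside 19.7%. All 88 were also called in both wings, which the gap that the limits require makes likely. Of the 38 switched on, 27 were at most 1 CPM in every larval library, 14 were at most 1 CPM again in every late pupal library, and 7 were at least 10 CPM in every late pupal library. Of the 50 switched off, 29 were at most 1 CPM in every larval library, 10 stayed at most 1 CPM in every late pupal library and 9 were back at 10 CPM or more in all of them. Without both 72 h replicates 3, the counts were 64 and 55, and they held all 38 and all 50. This follows largely from the rule, which then has to hold in fewer libraries.

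The most abundant of those switched on was 000034F:1731800-1735646, with 1672, 446 and 120 CPM in 72 h forewings, against 0.387, 0.429 and 0.293 CPM in prepupal forewings. Hindwing libraries had 6077, 2033 and 233 CPM at 72 h, against 0.267, 0.0881 and 0.186 CPM in the prepupa, and in the 5th instar and late pupa no library exceeded 1.54 CPM. Replicate 3 was the lowest at 72 h in both wings. The next, 000325F:452607-462147, had 1473, 1338 and 89.9 CPM in 72 h forewings, against 0, 0.214 and 0.147 CPM in prepupal forewings. Both were called in both wings, with adjusted p from 3.10e-08 to 1.92e-06.

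Of those switched off, 000044F:272740-277483 was the most abundant, with 0.113, 0.977 and 0.445 CPM in 72 h forewings, against 570, 289 and 1457 CPM in prepupal forewings. In 72 h hindwings it had 0.141, 0.833 and 0 CPM, against 129, 48.2 and 234 CPM in prepupal hindwings. The second, 000074F:245363-245728, returned. It had 0, 0.488 and 0.356 CPM in 72 h forewings, against 447, 374 and 1230 CPM in prepupal forewings, and stood at 193, 161 and 192 CPM in late pupal forewings. Both fell by 9.12 or more on the log2 scale in each wing (adjusted p from 1.11e-08 to 1.72e-06).

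The step differed between the wings for fewer models than it moved. By a test of the hindwing step minus the forewing step, 536 models were called (4.04% of those tested), 272 with the hindwing step above and 264 with it below. At an unadjusted p below 0.05 there were 2151. With DESeq2 size factors in the same fit the split was 389 above and 223 below. Libraries of one stage and number varied together across wings (r from 0.703 to 0.757 at 72 h and from 0.517 to 0.581 in the prepupa), and a fit with stage and number as a block called 2787 models, 1450 above and 1337 below, among them all 536. In the fit without the block, the 536 included 36 of the 2399 risers (1.50%) and 182 of the 2421 fallers (7.52%). Neither these shares nor the gaps that follow were computed for the 2787 models of the blocked fit. In 514 of the 536 (95.9%) the gap between the wings was larger in the prepupa than at 72 h, against 67.9% of all tested models. The median size of that gap among the 536 was 0.24 on the log2 scale at 72 h and 1.11 in the prepupa, against 0.19 and 0.37 over all tested models. The TMM factors of forewing and hindwing also lay further apart in the prepupa than at 72 h, and their part in this was not tested.

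The 2 models with the largest opposite steps are near neighbours on contig 000018F. Model 000018F:2242520-2256445 had 8.999, 9.79 and 21.4 CPM in 72 h hindwings, against 121, 75.2 and 86.1 CPM in prepupal hindwings. In 72 h forewings it had 16.5, 19.9 and 24.2 CPM, against 6.19, 6.86 and 6.75 CPM in prepupal forewings. It fell by 2.80 in the hindwing (SE 0.28, adjusted p = 1.56e-07) and rose by 1.61 in the forewing (SE 0.28, adjusted p = 9.16e-05), and the difference was -4.41 ± 0.39 (adjusted p = 5.85e-06). Model 000018F:2273085-2282022 had 12.1, 19.8 and 36.4 CPM in 72 h hindwings, against 157, 157 and 155 CPM in prepupal hindwings. In 72 h forewings it had 23.7, 40.0 and 42.6 CPM, against 13.3, 12.6 and 10.6 CPM in prepupal forewings, with a difference of the steps of -4.32 ± 0.39 (adjusted p = 5.85e-06). For both models the hindwing libraries at 72 h lay below the forewing library of the same number in all 3 pairs, although the ranges of the wings overlapped. In the prepupa all hindwing libraries lay far above all forewing libraries.

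Another 4 models had the largest wing differences of the step in either direction. Model 000446F:235314-252585 rose in the hindwing alone by call, with 537, 196 and 21.5 CPM in 72 h hindwings, against 2.67, 3.79 and 2.33 CPM in prepupal hindwings. In 72 h forewings it had 47.0, 11.4 and 32.8 CPM, against 35.2, 8.25 and 22.4 CPM in prepupal forewings. Its difference of the steps, 5.94 ± 1.46 (adjusted p = 0.0256), lost its call without any 1 of 7 of the 12 libraries, with adjusted p from 0.0521 to 0.0787 and a lowest value of 4.71 without 72 h hindwing replicate 1. With the block of stage and number it was 5.19 ± 1.23 (adjusted p = 0.0103). Model 000091F:1325357-1329266 fell in the forewing and not past the threshold in the hindwing. It had 14.8, 3.96 and 1.19 CPM in 72 h hindwings, against 24.6, 17.7 and 15.8 CPM in prepupal hindwings, and 3.72, 2.04 and 0.178 CPM in 72 h forewings, against 183, 133 and 172 CPM in prepupal forewings. Its difference was 4.83 ± 0.98 (adjusted p = 0.00886), 3.35 without 72 h hindwing replicate 1 and 5.60 without 72 h forewing replicate 1. Its hindwing change of -1.55 (adjusted p = 0.0634) passed the threshold without 72 h hindwing replicate 1 (-3.03, adjusted p = 0.00188) and without 72 h forewing replicate 3 (-1.56, adjusted p = 0.0291).

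In the other direction, 000019F:1481512-1486585 was lost from the hindwing, with 0, 0.417 and 0.366 CPM in 72 h hindwings, against 59.6, 40.0 and 72.5 CPM in prepupal hindwings. In 72 h forewings it had 19.2, 28.7 and 17.4 CPM, against 46.2, 30.3 and 75.1 CPM in prepupal forewings, and the difference of the steps was -6.52 ± 1.31 (adjusted p = 0.00790). By the range of 3 libraries the wings did not overlap at 72 h and overlapped in the prepupa. Model 000108F:1466504-1468552 had 0.281, 1.25 and 0 CPM in 72 h hindwings, against 41.5, 20.9 and 45.8 CPM in prepupal hindwings. In 72 h forewings it had 3.04, 0.651 and 0.0889 CPM, against 0.967, 0.321 and 2.20 CPM in prepupal forewings. The difference was -6.59 ± 1.40 (adjusted p = 0.0110). It lost its call without 72 h forewing replicate 1 (-4.98, adjusted p = 0.0762), and was -7.19 without 72 h forewing replicate 3, -7.54 without prepupal forewing replicate 3, -8.28 without 72 h hindwing replicate 2 and -5.76 without 72 h hindwing replicate 3.

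**Figure D5:**
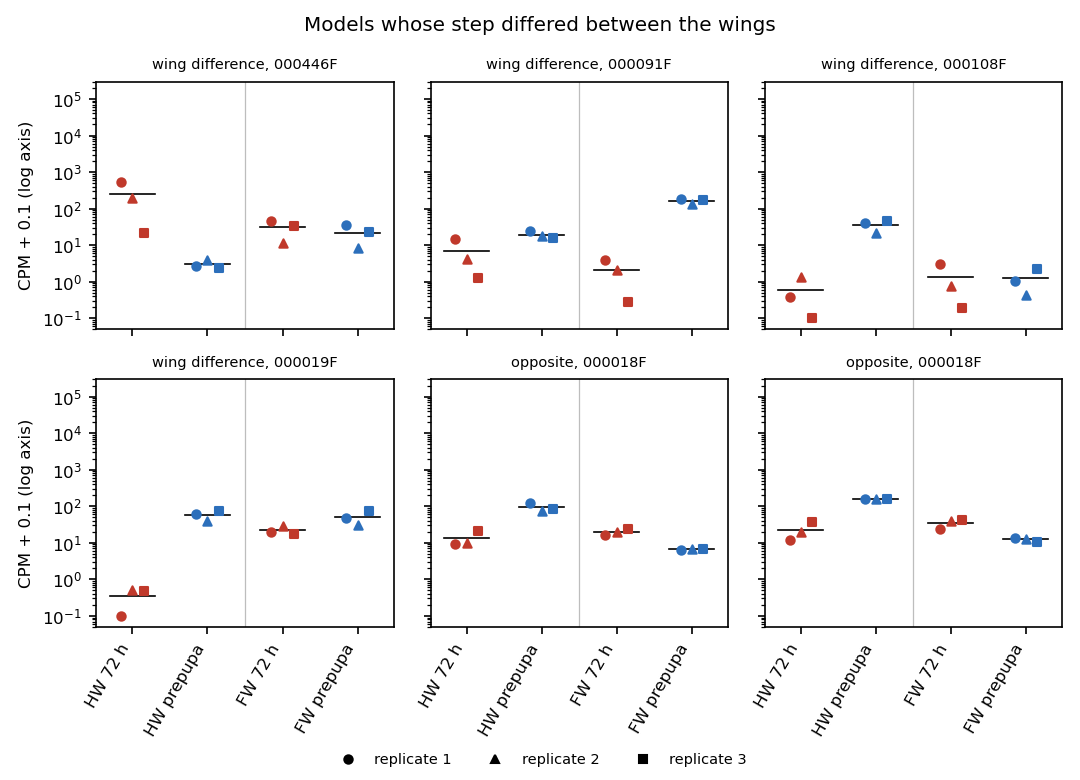
CPM + 0.1 (log axis) of the 6 models named for a difference of the step between the wings, in each library of the hindwing (HW) and the forewing (FW), with 72 h in red, prepupa in blue, marker shape for the replicate number and a bar for the mean of 3. In the models of contig 000018F the hindwing libraries lie above all forewing libraries in the prepupa and below the forewing library of the same number at 72 h, and in the model of contig 000019F they lie below all forewing libraries at 72 h.

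Against this turnover, 821 models were called in neither wing and had a fold change below 0.25 on the log2 scale in both. The most abundant, 000019F:2127181-2136615, had 1669, 1791 and 1579 CPM in 72 h forewings, against 1479, 1613 and 1984 CPM in prepupal forewings, a log2 fold change of -0.01 ± 0.15 (adjusted p = 0.965). In the hindwing its change was 0.23 ± 0.15 (adjusted p = 0.222), which passed the threshold by the Wald test of DESeq2 (0.26, adjusted p = 0.0265). Being level rests on the scaling: as unscaled shares of counts the same model held 0.144%, 0.165% and 0.170% in 72 h forewings, against 0.0824%, 0.0987% and 0.1196% in prepupal forewings. Model 000082F:1327801-1346202 changed by -0.24 ± 0.18 in the forewing and -0.02 ± 0.18 in the hindwing (adjusted p = 0.297 and 0.939), and 000022F:983769-991036 by 0.16 ± 0.24 and -0.16 ± 0.24 (adjusted p = 0.610 and 0.619). The last was lower in the larva, with 216 to 282 CPM in larval forewings.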

How the data were processed

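Poly-A RNA of whole wings was sequenced in 24 wing libraries with counts, 3 in each of 8 groups of wing and stage, and per the labels the library kit was from NEB. The authors deposited whole-number read counts per gene model, without normalization, for these libraries. TopHat, bedtools and DESeq2 appear in the submitters' processing notes without a role or version. No source used here gives the genome build, the annotation, the use of strand, or whether a count covers exons or a whole span. Models that overlap another (2605 of those tested) may share reads. Count columns headed d3 were taken as the 72 h libraries by wing and number. The late stage is 6 days after pupation in one label and day 7 in another.

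Models with low counts were left out with filterByExpr (at least 10 counts, 15 in total) of edgeR 4.0.16, run under R 4.3.3, and libraries were scaled with TMM. glmQLFit was fitted over all 24 libraries, with a mean for each group and 2-sided tests. SE is the absolute log2 fold change over the square root of F. The common biological coefficient of variation was 38.7%. Folds against a group with no count are bounds from a floor of 3 counts over the group, and those with 1 to 3 counts are ratios with exact 95% intervals. Both cover counting error only, since PCR copies are not independent molecules. Replicate numbers did not pair libraries across stages (r from 0.021 to 0.066 within a wing). They paired forewing and hindwing within a stage, which the labels do not state. Alternatives were DESeq2 1.42.0, its size factors, no filter, the 12 libraries or each wing alone, libraries left out, blocks, an adjusted p below 0.01, overlapping models left out and the wings summed. The neighbour shares without both 72 h replicates 3 were added after the data were seen.

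The models and lists were chosen with earlier results of these data known. Named models were the 6 largest rises and falls (called in both wings, mean log2 CPM of 3 or more, no overlap), the 4 with the largest share of counts at each stage, the 2 largest wing differences in each direction and the 2 largest opposite steps (mean log2 CPM of 1 or more), the 3 most abundant steady models, and the 3 longest runs in each direction. Others are named as the extremes of a count or were chosen after their values were seen. The 14 libraries without counts here were not analysed.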

Additional observations from a re-analysis of the deposited data

Results flagged for a closer look

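The change between the prepupa and 72 h differed between the wings for 536 models by a test of the hindwing step minus the forewing step. Among the named models, that difference was 5.94 for 000446F:235314-252585, 4.83 for 000091F:1325357-1329266, -6.59 for 000108F:1466504-1468552, -6.52 for 000019F:1481512-1486585, -4.41 for 000018F:2242520-2256445 and -4.32 for 000018F:2273085-2282022, on the log2 scale. With stage and number as a block these were 5.19, 4.78, -6.45, -6.46, -4.40 and -4.39, and all 6 were called. Within the run of fallers on contig 000139F, the difference was 0.90 for 000139F:987253-993935, where the hindwing fell less (-2.16 against -3.07 in the forewing), and -1.02 for 000139F:1145536-1152439, where it fell more (-1.83 against -0.82). With the block these were 0.89 and -1.01 (adjusted p = 0.00198 and 0.00153). Without single libraries, 000139F:987253-993935 lost its call 5 times and 000139F:1145536-1152439 once, with adjusted p up to 0.0673 and 0.0511.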

How the results depend on the processing

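No alternative reversed a called step of a named model in either wing, and none of the shared risers became a faller or the other way round. Reversals among the other models were not counted. The forewing step gave between 5675 and 6581 called models without single libraries, the hindwing step between 5744 and 6605, and both wings together between 4428 and 4790. The fit of the wings summed gave 2781 rises and 2767 falls, and each wing fitted alone gave 1682 shared risers and 1731 shared fallers. With the replicate number as a block in the fit of the 12 libraries there were 2255 shared risers and 2373 shared fallers. The count of wing differences was the least stable: 994 by DESeq2, 54 in the fit of the 12 libraries, 166 at an adjusted p below 0.01, 2787 with stage and number as a block, and between 311 (without prepupal forewing replicate 1) and 902 (without 72 h hindwing replicate 3) without single libraries, with 327 without prepupal hindwing replicate 3. The cause was not tested. Limits of 0.5 and 20 CPM left 28 switched models. The shares of neighbours that moved the same way were 31.4% for risers and 31.9% for fallers at an adjusted p below 0.01, between 33.4% and 34.8% for risers and between 33.7% and 34.9% for fallers without single libraries, and 33.1% for fallers without both 72 h replicates 3. At an adjusted p below 0.01, which calls fewer models by construction, 464 risers (26.6%) were higher and 323 (18.5%) lower in the late pupa than in the 5th instar, 610 fallers (32.9%) were higher and 471 (25.4%) lower, and the shares over all tested models were 22.9% and 23.5%. Of 3460 values of the named models' steps in a single wing under alternatives, 3407 kept their side of the threshold, 47 lost the call and 6 gained one. This tally leaves out the adjusted p below 0.01 and the wing differences of the step. Direction held wherever either fit made a call. Uncalled values could change sign, as the forewing change of 000108F:1466504-1468552 did, from 0.09 to -1.54 without 72 h forewing replicate 1. Depth limits models with few counts: the shallowest library held 5795618 counts.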

Other observations

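The adjacent steps share libraries with the one described here, so that only levels are given for them. The risers held 11.0% ± 0.330 (SD, n = 3) of late pupal forewing counts and 12.5% ± 0.473 of late pupal hindwing counts. The 4 fallers that led the prepupal counts differed in the late pupa. In late pupal forewings 000032F:2595231-2602533 and 000055F:1363121-1364800 were at 3983 to 7054 CPM and 7472 to 10889 CPM. There 000006F:3244980-3253099 was at 11.1 to 141 CPM, and 000001F:4573274-4597913 averaged 69.7 CPM. Other abundant fallers were not sorted in this way. Model 000108F:1466504-1468552, high in prepupal hindwings and low in prepupal forewings, was high in both wings of the late pupa, with 186, 157 and 414 CPM in hindwings and 263, 211 and 578 CPM in forewings. Contig 000206F had the highest share of fallers of the contigs with at least 8 tested models, 8 of 9.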
